A study of Mus musculus with 2 samples.

Results

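10 transcription factors of the myeloid lineages were followed in cultured mouse mast cells: Spi1 (PU.1), Cebpa, Cebpb, Cebpe, Irf8, Gfi1, Runx1, Ikzf1 (Ikaros), Id2 and Bhlhe40. They were chosen by name, as every non-control probe whose array gene name is 1 of these 10 symbols, with Spi1 written under its older symbol Sfpi1. This gave 13 of the 59305 non-control spots, 1 probe for 8 of the factors, 2 for Runx1 and 3 for Ikzf1. All 10 factors were among the 20408 genes measured on both arrays, where measured means that the scanner software called a probe well above background and unsaturated on each array.

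The study used 2 one-colour arrays of total RNA from bone marrow-derived mast cells of C57BL/6 mice, 1 for cells given a control siRNA and 1 for cells given an siRNA against GATA1 (200 pmol of either). Both cultures were grown from marrow mononuclear cells for 2 weeks with interleukin 3 (10 ng/mL) and then for 2 weeks with interleukin 3 and stem cell factor (10 ng/mL of each), and each array carries a pool of 2 animals. The part of the Gata1 transcript that the siRNA targets and the interval between transfection and harvest are not given in the sources used here. With 1 array a group no value has a replicate check or a p-value, and the small number of arrays limits precision throughout.

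GATA1 and PU.1 are known from erythroid and myeloid cells to bind each other and to oppose each other's activity. The transcripts of both were measured in these mast cells. PU.1 and the C/EBP proteins open the granulocyte and monocyte programmes, IRF8 favours monocytes and dendritic cells, and GFI1 is a repressor that favours neutrophils. RUNX1 and Ikaros act more broadly in blood formation. The comparison asks whether the transcripts of these factors differed when Gata1 was knocked down.

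The labels held for the targeted gene: the Gata1 probe read 16415 with control siRNA and 3930 with GATA1 siRNA, a log2 difference of -2.23. On each array 53.3% to 55.7% of spots were well above background. Of 11 mast cell markers, all 11 were measured, with a median difference of -0.07. Their summed level, in units of each array's 75th percentile, was 2627 with control siRNA and 2411 with GATA1 siRNA, and they ran from Mcpt4 at -0.88 to Cpa3 at 0.04. Such a sum, here and below, is weighted towards the brightest probes of a list and is not an amount of transcript. Over all measured genes the median difference was 0.012 with an SD of 0.29. All differences are log2 values with the control siRNA value subtracted from the GATA1 siRNA value, after each signal was set relative to the 75th percentile of the non-control probes on its array.

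None of the 10 factors differed by 1.5-fold. Irf8 was the highest at 0.42 (1.34-fold), followed by Cebpe at 0.28, Cebpb at 0.23 and Spi1 at 0.19, and Runx1 was the lowest at -0.17. Of the 10, 6 were above 0 and 4 below, against 52.7% of all measured genes above 0. The members' median was 0.09, and no member passed 1.5-fold in either direction, where 1.83% of all measured genes (374) were higher by this rule and 2.76% (563) lower. That split turned with the scaling, to 490 higher and 424 lower with loess and 510 and 448 with the authors' deposited table. At 2-fold those shares were 0.294% and 0.608%.

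**Figure D1:**
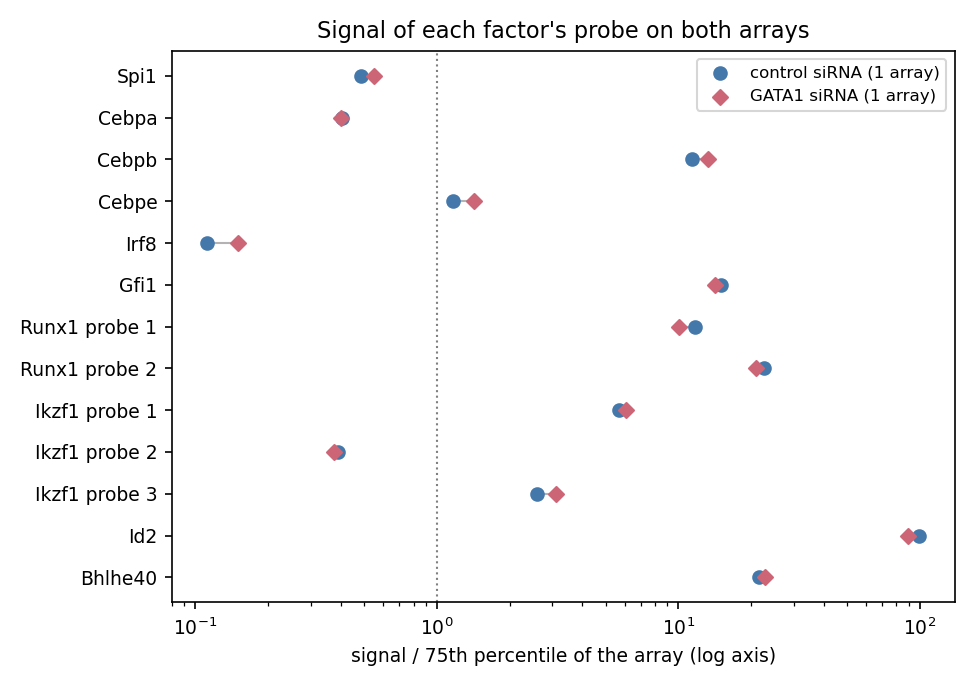
Signal of each of the 13 probes divided by the 75th percentile of its array (horizontal log axis), for the control siRNA array (circles) and the GATA1 siRNA array (diamonds), 1 array each; the dotted line marks the 75th percentile. The paired points lie close together for every probe, with the widest gap at Irf8, whose signal was also the dimmest.

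A pair of errors describes the arrays, and neither covers the cells or animals. The software's own error of a log2 difference lay between 0.20 and 0.25 for the 13 probes; it assumes a multiplicative error of 0.1 of the signal. The SD of the difference between repeated spots, taken as the median over the 40 measured probes with repeats whose level was nearest, lay between 0.03 and 0.24, and was widest for dim probes. Of the 13 probes, 5 differed by more than 1 software error and 0 by more than 2, whereas 29.8% of all measured probes printed once passed 1 error and 7.82% passed 2. With only 13 probes, some of them of the same gene, neither count is read as a difference from all probes. The largest ratio of difference to error was 1.65, at Irf8.

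**Figure D2:**
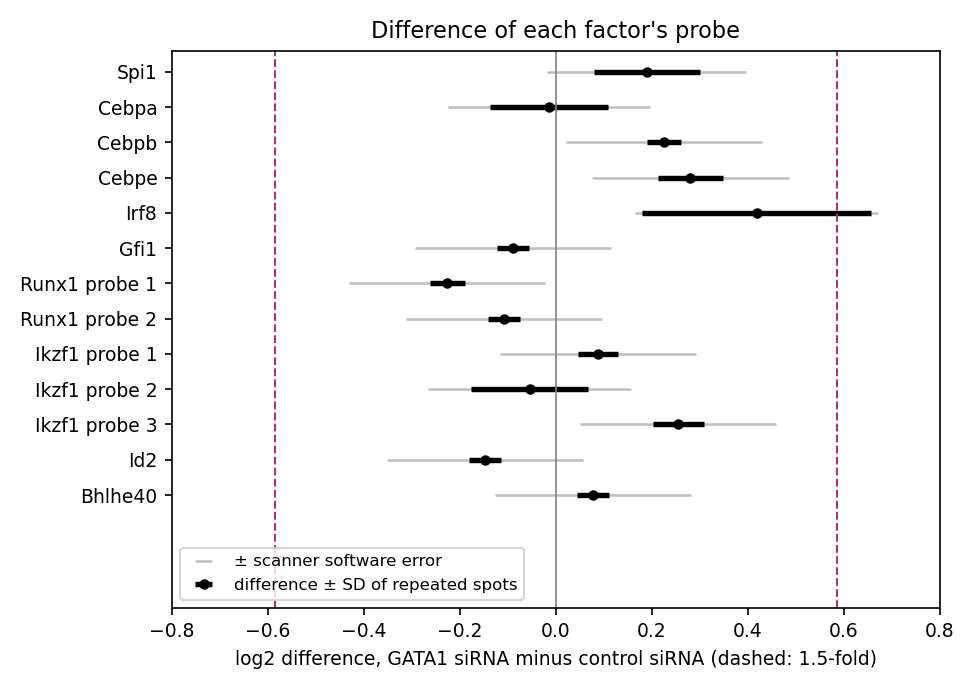
Log2 difference of each probe, GATA1 siRNA minus control siRNA (1 array each), with the SD of repeated spots of like level (thick bars) and the software's error (thin bars); dashed lines mark 1.5-fold. All points lie inside the dashed lines, from -0.23 for Runx1 probe 1 to 0.42 for Irf8.

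Spi1 encodes PU.1, an ETS family factor on which macrophages, neutrophils, B cells and mast cells depend. Its probe read 147 with control siRNA and 187 with GATA1 siRNA, so the GATA1 siRNA array was the higher, by 0.19 (software error 0.21, repeated spots 0.11). The array annotation places this 60-base probe on the plus strand of chromosome 2 from 90939665 to 90953452 (mouse build mm9), a span of 13788 bp, so the probe crosses an intron. Of its 22 neighbouring spots on the slide 1 differed by 4-fold or more, and the median difference of the 10 measured neighbours was -0.12. No other probe of the 13 had such a neighbour.

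The C/EBP factors are leucine zipper proteins that act in sequence along the granulocyte lineage. Cebpa, needed to form granulocyte and monocyte progenitors, read 122 and 136 (control siRNA first, as for all pairs that follow) and lay near 0 after scaling, at -0.014. Its sign turned positive under quantile, loess and the authors' scaling, up to 0.05. Cebpb, a factor of macrophages and of granulocyte production under stress, read 3456 and 4530, a difference of 0.23 (software error 0.20, repeated spots 0.04). Cebpe, which drives the genes of secondary granules late in neutrophil and eosinophil maturation, read 355 and 484, a difference of 0.28 (software error 0.20, repeated spots 0.07). Cebpb and Cebpe were thus higher in the GATA1 siRNA array by more than either error. Of measured genes, 12.8% and 9.25% had a difference as high as these or higher, counted in the higher direction only. Cebpb was under its software error with quantile and loess scaling, at 0.17 with each.

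Irf8, a factor of monocytes and dendritic cells that restrains neutrophil formation, had the dimmest probe of the set. It read 34 and 51, a difference of 0.42 (software error 0.25, repeated spots 0.24). Of measured genes, 4.44% had a difference as high or higher, counted in the higher direction only. With another background correction (normexp) the difference was 0.10. That correction adds an offset of 50, which shrinks the differences of dim probes. The value is under the software error above, but that error was computed for the signal without the offset. The probe lies on the plus strand of chromosome 8 at 123280324 to 123280383 (mm9).

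Gfi1, the zinc finger repressor of neutrophil and stem cell programmes, read 4556 and 4803, a difference of -0.09 that ranged from -0.15 to -0.03 over the alternative settings. Id2, a helix-loop-helix protein without a DNA-binding region that sequesters E proteins, was the brightest probe at 30116 and 30508, with a difference of -0.15 (range -0.20 to -0.09). Bhlhe40, a basic helix-loop-helix repressor that follows cell activation, read 6539 and 7737, a difference of 0.08 (range 0.02 to 0.14). For these 3 factors the software error was 0.20, and the difference was smaller than it under each setting except Id2 under quantile scaling.

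Runx1, the DNA-binding subunit of core binding factor, has 2 probes, 1372 bp apart on the minus strand of chromosome 16. Probe 1, at 92604413 to 92604472 (mm9), read 3550 and 3404, a difference of -0.23. Probe 2, at 92605785 to 92605844, read 6842 and 7124, a difference of -0.11. Both were below 0. Their gap of 0.12 was smaller than the software error of either probe but larger than the repeated-spot SD of either. Probe 1 differed by more than its software error (0.20) and its repeated-spot SD (0.04). Probe 2 passed its repeated-spot SD (0.03) only. Their mean was -0.17, and it ranged from -0.23 to -0.11 over the settings.

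Ikzf1 encodes Ikaros, a zinc finger factor of lymphoid and myeloid cells whose transcripts are spliced in several forms. Its 3 probes lie on the plus strand of chromosome 11 (mm9), at 11661344 to 11661403, 11669493 to 11669552 and 11672828 to 11672887. Probe 1 read 1729 and 2061 (0.09), probe 2 read 118 and 128 (-0.05), and probe 3 read 791 and 1058 (0.26). They did not share a sign. Their SD of 0.16 was smaller than the software error of 0.20 to 0.21, but their range of 0.31 was larger. Both the SD and the range were larger than the repeated-spot SDs of these probes (0.04 to 0.12). Probe 3 differed by more than its software error (0.20) and its repeated-spot SD (0.05), and probes 1 and 2 stayed under their software error. The gene's mean was 0.10, and it was 0.16 with the authors' deposited table. Probe 1 is annotated to an Ensembl transcript and the others to a RefSeq transcript, so these 3 values need not describe the same set of isoforms.

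To show which stretch of transcript each value comes from, the first 30 of the 60 bases are given, as the scanner files hold them, for the probes of the factor with the largest difference and of the factors with several probes. No base is marked by capitals, and whether a probe lies in coding sequence or a UTR was not analysed here.
Irf8: aacagacagggtcgacagagtgtgtgatac
Runx1 probe 1: tgtgcatcgtgtcactgtaaatgtaatggt
Runx1 probe 2: caggagggcccttggaggccaccaggaaga
Ikzf1 probe 1: cagaaatttcttggtaagagttaaatgttt
Ikzf1 probe 2: ttgagtgtaacatgtgtggttatcacagcc
Ikzf1 probe 3: aggaagctcatgtgcatctggtgctatggc
Over the whole probe, G and C made up 41.7% of Runx1 probe 1 and 58.3% of Runx1 probe 2, and 35% of Ikzf1 probe 1 against 45% of probes 2 and 3. The brighter Runx1 probe was the one richer in G and C, whereas the brightest Ikzf1 probe was the poorest, and no level of one probe is read here as an amount of transcript against another.

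**Figure D3:**
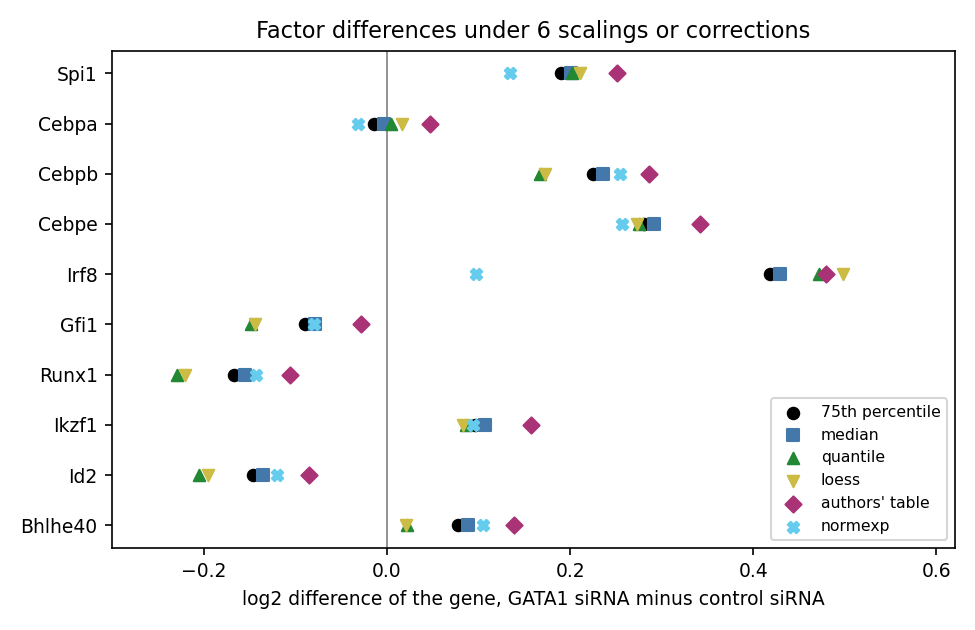
Log2 difference of each factor (mean of its probes), GATA1 siRNA minus control siRNA, under the 75th percentile scaling used in the text, 4 other scalings and the normexp background correction. Cebpa is the factor whose points lie on both sides of 0, and Irf8 drops to 0.10 with normexp while its other points lie between 0.42 and 0.50.

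GATA1 is known to act through a short DNA word, so the starts of the factor genes were searched for it. RefSeq start sites of build GRCm38.p6 were given for 7 of the 10 factors, 11 promoters in all, each taken as the 250 bases before the start. Cebpa, Cebpb and Id2 had 1 start, and Gfi1, Irf8, Ikzf1 and Runx1 had 2. The 4 GATA words searched on both strands were AGATAA with its variant ending in G (AGATAG), and the same pair beginning with T (TGATAA, with the variant TGATAG). They were in 0 of the 11 promoters, against 26.5% of the 32851 promoters of the same length in the table. The factor promoters held 45.6% to 82% G and C, against a median of 52.4% over all, and the part of base composition in this count was not tested. GAGGAA, the core of the PU.1 word, was in 1 (Runx1) against 23.3% of all promoters. TTGCNNAA, a C/EBP word, was in 1 (Gfi1) against 9.56%, and the palindrome within it, with GC in the middle, was in 0 against 0.164%. TGTGGT, the RUNX word, was in 0 against 14.0%, CACGTG, an E-box that BHLHE40 can bind, in 1 (Runx1) against 6.02%, and AAATCA, part of the GFI1 word, in 3 (both Irf8 starts and 1 of Ikzf1) against 12.4%. A word in a promoter is a description of its letters and not a site of binding.

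The upstream start of Irf8 (highest difference) and the start of Runx1 (lowest difference) that holds the E-box are printed 5′ to 3′ on the gene's strand, with the words found in capitals. In Irf8, the word TGATTT, which is AAATCA on the other strand, begins 175 bases before the start. In Runx1, CACGTG begins 71 bases before it.
Irf8, chr8:120736108-120736357, plus strand (GRCm38.p6): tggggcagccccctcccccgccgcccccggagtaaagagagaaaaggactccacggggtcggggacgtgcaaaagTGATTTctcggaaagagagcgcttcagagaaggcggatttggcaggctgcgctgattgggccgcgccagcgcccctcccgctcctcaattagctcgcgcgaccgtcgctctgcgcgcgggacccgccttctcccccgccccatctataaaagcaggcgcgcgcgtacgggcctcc
Runx1, chr16:92826075-92826324, minus strand (GRCm38.p6): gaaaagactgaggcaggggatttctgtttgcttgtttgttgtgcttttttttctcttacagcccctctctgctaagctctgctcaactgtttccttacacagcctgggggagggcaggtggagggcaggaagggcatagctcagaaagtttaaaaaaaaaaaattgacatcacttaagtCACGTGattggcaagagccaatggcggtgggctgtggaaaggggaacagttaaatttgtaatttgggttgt

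Relatives of the factors in the same families spread to both sides of 0. Of 25 relatives, 20 were measured, with a median of 0.02 (10 above 0 and 10 below, 0 past 1.5-fold), and the sign of this median turned under 4 of the settings. Runx2, the bone and plasmacytoid dendritic cell relative of Runx1, stood at 0.53 (signals of 63 and 101), and Id1, an inhibitor like Id2, at 0.51 (772 and 1236). Irf1, an interferon response factor, stood at 0.36. At the other end were Ikzf3 (Aiolos), a lymphoid relative of Ikaros, at -0.46 (57 and 46), Ddit3, a stress-induced C/EBP protein, at -0.38, and Gfi1b at -0.37 (1590 and 1376). Gfi1b is the relative of Gfi1 that acts in red cell and platelet formation, and it lay below Gfi1 (-0.09). Cebpd, of the same family as Cebpb, stood at 0.25 (1031 and 1372) and Cebpg at -0.14. Spib, Spic, Irf4, Id4 and Bhlhe41 stayed below the well-above-background call on both arrays.

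Cofactors and factors that share targets with the set were mostly near 0. Of 28, 27 were measured, with a median of 0.06 (17 above 0, 10 below), 2 were higher by 1.5-fold and 0 lower. The highest were Maf, a macrophage leucine zipper factor, at 0.85 (115 and 232), Tcf4, an E protein of plasmacytoid dendritic cells, at 0.59 (69 and 116), and the immediate early factor Egr1 at 0.41. The lowest were Runx1t1 at -0.41, the corepressor Rcor2 at -0.23 and Klf4, a monocyte factor, at -0.19. Cbfb, the partner subunit of RUNX1, stood at 0.01 (9771 and 11046), and Kdm1a and Rcor1, the demethylase and corepressor that GFI1 recruits, both at 0.11.

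Genes of the granulocyte programme in which C/EBP proteins and the repressor GFI1 act stood further from 0 than the factors. Of 21 listed genes 19 were measured, with a median of 0.50, 17 above 0 and 2 below, and 6 were higher by 1.5-fold and 0 lower. Itgb2l, an integrin chain, stood at 1.01 (28 and 62), lactoferrin (Ltf) at 0.79 (512 and 994) and neutrophilic granule protein (Ngp) at 0.75 (268 and 504). The lowest were cathepsin G (Ctsg) at -0.37 (31238 and 27172), the G-CSF receptor Csf3r at -0.24 (80316 and 76077) and the chemokine receptor Cxcr2 at 0.09. The list's median was 0.34 with normexp. It shares 13 genes with the neutrophil markers, which is 68.4% of the list and 100% of the measured markers, so the 2 lists are not separate measurements. Of those 13 markers 11 were above 0, and their summed level was 451 with control siRNA and 426 with GATA1 siRNA; Csf3r and Ctsg, the members below 0, were the brightest of them. They ran from Ctsg to Ltf. Retnlg, a marker of mature neutrophils, stayed below the well-above-background call on both arrays. Cd177 stayed below that call on both arrays, and Mmp9 passed it on the GATA1 siRNA array only. The part of neutrophil-like cells in the list's value was not tested. In a bulk sample, a change in the number of cells of a type and a change in RNA per cell cannot be told apart.

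Known PU.1 targets stood nearer to 0. All 23 were measured, with a median of 0.20, 16 above 0 and 7 below; 1 was higher by 1.5-fold and 0 lower. Cd68, a lysosomal glycoprotein of macrophages, stood at 1.07 (1246 and 2939), the inhibitory Fc receptor Fcgr2b at 0.53 (1751 and 2825) and the oxidase subunit Cybb at 0.41 (17 and 26). The lowest were Fcgr1 at -0.39 (35 and 30), Il1b at -0.13 and Fcer1g, the shared Fc receptor chain, at -0.12. Csf1r, the macrophage growth factor receptor, stood at 0.02 (306 and 348). The median was 0.04 with normexp, whose added offset shrinks the differences of dim probes, and 0.08 with a stricter filter on dim probes. Macrophage and monocyte markers, 12 of 15 measured and 5 of them shared with this list, had 9 above 0 and 3 below, from Cx3cr1 at -0.94 to Ms4a7 at 1.09, with a median of 0.40 and summed levels of 19.2 and 30.3. C1qa stayed below the well-above-background call on both arrays. The part that these cells have in the list's value was not tested.

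Genes of antigen presentation and of the monocyte and dendritic programme that IRF8 is known for had a median of 0.32. Of 18, 16 were measured, 11 above 0 and 5 below, with 3 higher by 1.5-fold and 1 lower. Bcl6, a repressor of germinal centre and dendritic cells, stood at 0.81 (353 and 695), the protease Ctss at 0.67 (1959 and 3505) and the thiol reductase Ifi30 at 0.64 (883 and 1542). The lowest were the fractalkine receptor Cx3cr1 at -0.94 (499 and 291), Naaa at -0.49 and Klf4 at -0.19. Ciita, the regulator of class II genes, was dim (24 and 33) and stood at 0.31, while the class II genes H2-Aa, H2-Eb1 and H2-Ab1 stood at 0.58, 0.48 and 0.43. Il12b and Ly86 stayed below the well-above-background call on both arrays. Id2 is in this list as well as among the 10 factors. Dendritic cell markers, 10 of 12 measured and 5 of them shared with the list, had 9 above 0 and 1 below, from Flt3 at -0.18 to H2-Aa at 0.58, with a median of 0.37 and summed levels of 16.01 and 20.2, and Xcr1 and Clec9a, which define a dendritic cell subset, stayed below the well-above-background call on both arrays. The part that these cells have in the value was not tested.

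**Figure D4:**
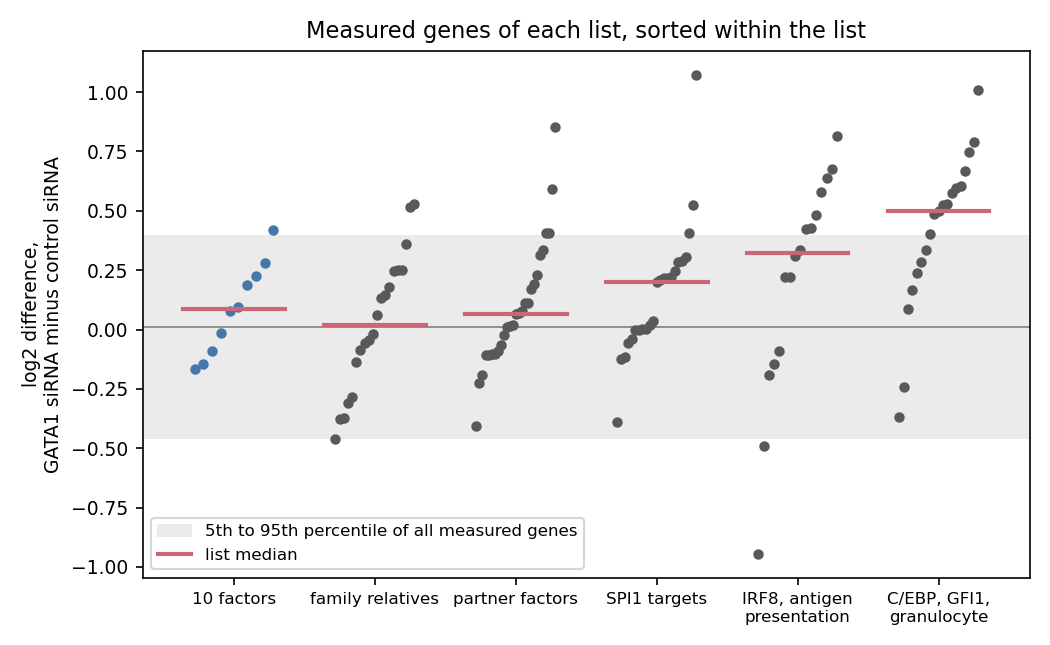
Log2 difference, GATA1 siRNA minus control siRNA (1 array each), of each measured gene in 6 lists, sorted within each list; red lines are list medians, the grey band runs from the 5th to the 95th percentile of all measured genes (-0.46 to 0.40), and the grey line is their median. The medians of the 10 factors and their relatives lie at 0.09 and 0.02, and that of the granulocyte list at 0.50. Among the factors and relatives, Irf8, Runx2 and Id1 lie above the band and Ikzf3 lies just below it.

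Among the other blood cell markers, the eosinophil markers had 2 of 9 above 0, with a median of -0.48 and summed levels of 35.1 and 26.5. They ran from Epx at -0.85 (713 and 445) to Siglecf at 0.60, a dim probe (19 and 32). Cebpe, which eosinophils also need, stood at 0.28 on the same arrays. The basophil markers had 4 of 5 above 0, with a median of 0.24 and summed levels of 190 and 220. Their ends were Il4 at -0.52 (1569 and 1226) and Itga2 at 0.45, also a dim probe (25 and 38). The megakaryocyte markers had 3 of 6 above 0, from Gp1ba at -1.02 to Itga2b at 0.25, with a median of -0.26 and summed levels of 54.0 and 45.2. Of 8 erythroid markers 4 were measured, from Epor at -1.58 to Hba-a2 at 1.0, with a median of 0.49 and summed levels of 2.93 and 4.77. Klf1 and Alas2, which define red cell precursors, stayed below the background call on both arrays. Of 7 lymphoid markers 3 were measured, from Cd79a at -0.38 to Il7r at 0.28, with a median of -0.14 and summed levels of 5.34 and 5.26. Cd3g, Pax5 and Cd2 stayed below the call on both. The difference of any factor against that of a list was not tested, since each group is 1 array.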

How the data were processed

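The authors deposited spot signals as intensity in scanner units from Agilent Feature Extraction 10.7.3.1, with spatial detrending switched on, per the file headers. A deposited table of normalized intensity, whose making is not given in the sources used here, served as an alternative, and the deposited calls per spot (background, saturation, outlier; unit "other") served as filters. With that deposited table each factor and Gata1 lay above its value in the text by the same amount. For them it is therefore another array constant and not a separate measurement. Both arrays lie on 1 slide, so slide is no difference between the groups, per the file headers. Spots marked as outliers on either array (117 and 133) were left out, repeated spots were averaged on the log2 scale, and each array was divided by its 75th percentile (303.2 and 340.0). Measured probes of the same gene were averaged. Of 55681 probes, 27229 were named by RefSeq accession, 3586 by symbol, 565 by older symbol and 24301 by the array's own name. No test was made, and rules of size (1.5-fold and 2-fold) stand in for one. The factors, the gene lists and the cell markers were chosen with earlier results of these data known. Named genes are Gata1, all factors, their relatives by value or range, the 3 highest and 3 lowest of each other list and the ends of each marker list. Cbfb, Kdm1a, Rcor1, Csf1r, Ciita and the class II genes were added after their values were seen. Alternatives used normexp (offset 50, limma 3.58.1, R 4.3.3), other scalings, filters and probe rules. The calculations ran in Python 3.11.15 and were tested on simulated data. Some genes of the lists are not reported here by name.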

Additional observations from a re-analysis of the deposited data

How the results depend on the processing

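Under the 10 alternative settings no factor passed 1.5-fold, and 5 to 7 factors were above 0. Much of this was fixed in advance. The filters and probe rules could not change a factor with 1 probe, except by leaving it out. Median scaling, keeping outlier spots and the authors' table each moved every factor by the same amount. Apart from the probe rules for Runx1 and Ikzf1, only normexp, quantile and loess could move factors relative to each other. Irf8 was 0.10 with normexp, and the stricter filter on dim probes left it out. With quantile scaling Cebpb was 0.17, Gfi1 -0.15, Runx1 -0.23, Id2 -0.20 and Bhlhe40 0.022. With loess scaling they were 0.17, -0.14, -0.22, -0.20 and 0.021. The authors' deposited table gave 0.29, -0.028, -0.11, -0.086 and 0.14 in the same order. The brightest probe of Runx1 gave -0.11. Spi1 ranged from 0.13 to 0.25, Cebpe from 0.26 to 0.34, Ikzf1 from 0.08 to 0.16 and Cebpa from -0.03 to 0.05, with its sign turned under 3 settings. Counts over all genes moved more: 374 genes were higher and 563 lower by 1.5-fold (39.9% of these higher), 111 and 159 with normexp, 490 and 424 (53.6% higher) with loess, 510 and 448 with the authors' table and 1788 and 2748 without the filter. No paired analysis was possible because each group is 1 array and the labels carry no replicate numbers. Irf8 had the dimmest signal of the 13 probes.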
